A study of Mus musculus with 6 samples.

Results

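The genes described here are 10 members of the hypoxia-inducible factor (HIF) pathway and its oxygen-regulated targets, chosen by gene symbol: Hif1a, Arnt, Egln1, Egln3, Vegfa, Bnip3, Bnip3l, Ndrg1, Ankrd37 and Pdk1. All 10 were found among the 22298 entries of the expression table, each as a single entry. RNA had been taken from whole lenses of mouse pups on postnatal day 0. The study set WT lenses against Fyco1-/- lenses, with 3 libraries (A, B and C) per genotype, every library from 10 pooled lenses and every animal labelled as strain C57BL/6. How many animals gave the lenses of a pool, how the Fyco1 allele was made and which part of the gene it removes are not given in the sources used here. Every level is an FPKM value, that is, fragments scaled to gene length and library size, so levels of different genes can be set side by side. Where 3 values are given for a genotype, they stand in the order of libraries A, B and C.

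HIF is a transcription factor made of an oxygen-regulated alpha subunit, such as the product of Hif1a, and a stable partner encoded by Arnt. When oxygen is plentiful, prolyl hydroxylases of the EGLN family mark the alpha subunit for binding by the VHL ubiquitin ligase and for breakdown, so HIF is set mainly at the protein level and its messenger RNA need not follow its activity. When oxygen is scarce, HIF raises genes of glycolysis, vessel growth, mitophagy and pyruvate use, and it also raises the EGLN genes that restrain it. The lens is a tissue without blood vessels of its own, fed in the newborn mouse by the hyaloid vessels around it, and it lives largely on glycolysis.

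The libraries were alike in depth and in crystallin share. Summed FPKM ran from 741913 to 760459, crystallins took 70.2% to 71.7% of it, and the steps between small values place the libraries at an estimated 17.0 to 20.0 M reads. Fyco1, the targeted gene, measured 5.40, 5.21 and 5.11 FPKM in WT lenses against 4.61, 4.59 and 4.87 FPKM in Fyco1-/- lenses (log2 fold change -0.15, SE 0.08, adjusted p = 0.273), so its level does not settle the genotype. Of 12001 genes with a mean of at least 0.5 FPKM, 410 were called higher and 602 lower in Fyco1-/- (limma, Benjamini-Hochberg adjusted p under 0.05 over all 12001), and 56.5% rather than 40.5% of the calls were higher with median-of-ratios scaling. Skeletal muscle markers summed to 9.57, 50.3 and 7.96 FPKM in WT against 3.73, 3.22 and 5.83 FPKM in Fyco1-/-. Every WT library lay above every Fyco1-/- library, none of the 5 tested markers was called, and their part in the results was not tested. The 7 mesenchyme and sclera markers in the table summed to 16.6 to 19.0 FPKM in WT and 13.5 to 16.05 FPKM in Fyco1-/-, with none of the 4 tested called, and their part in the results was not tested. Retinal markers were near 0, with 8 of 9 under a mean of 0.5 FPKM. Of 10 lens fibre markers 3 were called lower, beside 5.02% of all tested genes, and 0 higher. Bfsp2, 1 of these, fell from a mean of 1736 FPKM in WT to 91.9 FPKM in Fyco1-/- (limma, log2 -4.26, adjusted p = 0.000141). That was the lowest log2 fold change of all tested genes. Whether the genotypes also differ at loci other than Fyco1 was not tested. In whole lenses, fewer cells of a type and less RNA per cell cannot be told apart.

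In Fyco1-/- lenses Ndrg1 rose 1.93-fold, while Pdk1 fell to 71.6% and Egln1 to 81.1% of the WT mean. Those were the only 3 of the 9 tested genes that were called. The share of all tested genes called was 8.43% (3.42% higher and 5.02% lower). Hif1a, Bnip3, Bnip3l, Egln3 and Vegfa had lower means in Fyco1-/- without passing the test, the Arnt groups overlapped, and Ankrd37 was too low to be tested. The median log2 fold change of the 9 was -0.20, beside -0.04 over all tested genes. All 3 Fyco1-/- values lay below all 3 WT values for Hif1a, Egln1, Bnip3, Bnip3l and Pdk1, and above them for Ndrg1. Groups without overlap were found for 29.7% of all tested genes, 18.6% with Fyco1-/- lower and 11.1% with it higher.

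**Figure D1:**
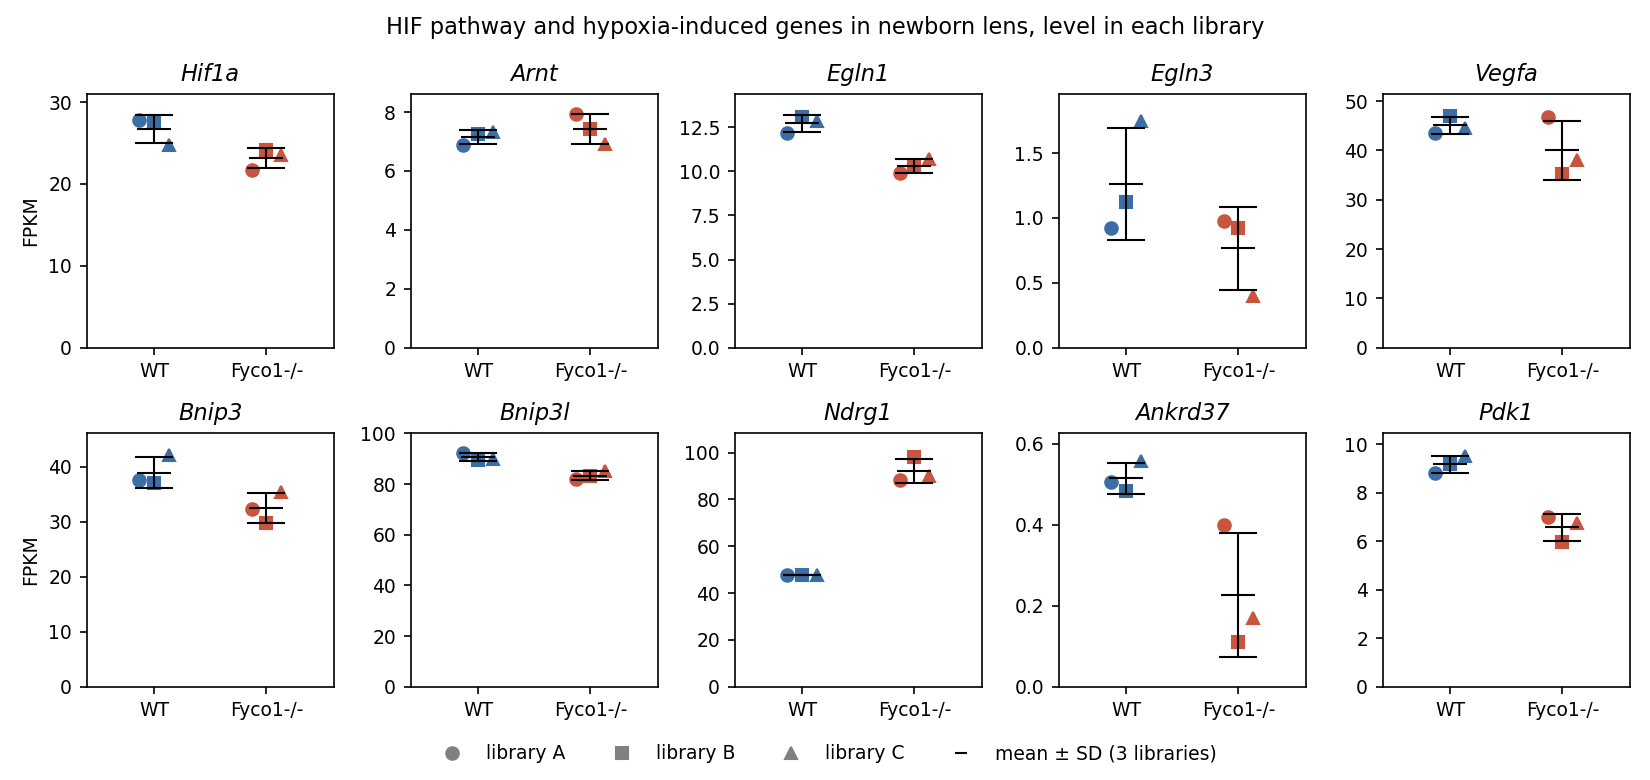
FPKM of the 10 genes in each library, 1 panel per gene, with circles, squares and triangles for libraries A, B and C and black bars for the mean ± SD of 3 libraries per genotype. Ndrg1 sits at 47.5 to 47.8 in WT and 88.4 to 98.0 in Fyco1-/-, Pdk1 and Egln1 lie lower in Fyco1-/-, and the Arnt and Vegfa groups overlap.

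The genes covered a wide range of levels. In WT the order from high to low was Bnip3l (90.6 FPKM), Ndrg1 (47.6 FPKM), Vegfa (45.1 FPKM), Bnip3 (38.9 FPKM), Hif1a (26.7 FPKM), Egln1 (12.7 FPKM), Pdk1 (9.17 FPKM), Arnt (7.15 FPKM), Egln3 (1.26 FPKM) and Ankrd37 (0.515 FPKM). The ranges of neighbours in that order were apart in all 9 pairs. In Fyco1-/- Ndrg1 (92.2 FPKM) stood above Bnip3l (83.4 FPKM), and Arnt (7.42 FPKM) above Pdk1 (6.57 FPKM). Of the 9 neighbouring pairs there, the ranges of 3 overlapped, which were Vegfa with Bnip3, Arnt with Pdk1, and Egln3 with Ankrd37. Bnip3l was higher than 98.4% of all entries of the table in WT, whereas Ankrd37 was higher than 46.4% of them.

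Hif1a encodes the alpha subunit HIF-1 alpha. It lies on GRCm38 chromosome 12, 73901375 to 73947530, plus strand (ENSMUSG00000021109). Its level was 27.7, 27.7 and 24.8 FPKM in WT lenses against 21.8, 24.1 and 23.5 FPKM in Fyco1-/- lenses. The groups did not overlap, but WT C lay closer to Fyco1-/- B and C than to WT A and B. The difference was not called (log2 fold change -0.20, SE 0.06, adjusted p = 0.0815), and without WT C it was (log2 -0.26, adjusted p = 0.0447). Exons of Hif1a overlap those of 2 other genes, by 330 bases for the antisense gene Gm15283. Gm15283 was listed at a mean of 2.24 FPKM in WT and 1.63 FPKM in Fyco1-/-. Strand handling during counting is not given in the sources used here, so reads of such overlaps cannot be assigned.

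Of the other alpha subunits, Epas1 (HIF-2 alpha) had a WT level of 5.32 ± 0.870 FPKM and a Fyco1-/- level of 5.36 ± 0.526 FPKM (mean ± SD, n = 3 libraries, as for every mean here). Hif3a measured 5.25 ± 0.0901 and 4.28 ± 0.866 FPKM (adjusted p = 0.180). Hif1a was thus the most abundant alpha subunit transcript, at 4.395 to 5.58 times the Epas1 level in the WT libraries and 4.08 to 4.84 times in the Fyco1-/- libraries, and those ranges overlapped.

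Arnt, also known as HIF-1 beta, is the partner shared by the alpha subunits (chromosome 3, 95434388 to 95497240, plus strand, ENSMUSG00000015522). It measured 6.88, 7.24 and 7.33 FPKM in WT lenses against 7.94, 7.41 and 6.91 FPKM in Fyco1-/- lenses. The Fyco1-/- values span the WT values, and the log2 fold change was 0.05 with a 95% confidence interval of -0.12 to 0.22 (adjusted p = 0.752). The ratio of Hif1a to Arnt within a library was 3.38 to 4.03 in WT and 2.74 to 3.41 in Fyco1-/-, which also overlapped.

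Egln1 encodes PHD2, regarded as the main oxygen sensor among the prolyl hydroxylases (chromosome 8, 124908587 to 124949324, minus strand, ENSMUSG00000031987). It measured 12.2, 13.1 and 12.9 FPKM in the WT lenses. In the Fyco1-/- lenses it measured 9.92, 10.3 and 10.7 FPKM. Every Fyco1-/- library lay below every WT library, and Egln1 fell by 0.29 on the log2 scale (SE 0.06, 95% confidence interval -0.43 to -0.15, adjusted p = 0.0198). Leaving out a library ended the call for 4 of the 6. These were WT B, WT C, Fyco1-/- A and Fyco1-/- B, with adjusted p of 0.0785, 0.0513, 0.0558 and 0.0595 in that order. Median-of-ratios scaling ended it too (adjusted p = 0.0533), while the log2 fold change over all 15 alternatives ran from -0.32 to -0.25. Egln2, the paralog PHD1, had means of 10.99 and 10.87 FPKM (log2 -0.01, 95% confidence interval -0.21 to 0.19, adjusted p = 0.962). Within a library the ratio of Egln1 to Egln2 was 1.04 to 1.29 in WT and 0.897 to 0.991 in Fyco1-/-, without overlap.

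Egln3 encodes PHD3, a prolyl hydroxylase gene that is itself strongly raised by HIF in many cells (chromosome 12, 54178981 to 54203860, minus strand, ENSMUSG00000035105). It was low, at 0.923, 1.12 and 1.75 FPKM in WT lenses against 0.977, 0.923 and 0.395 FPKM in Fyco1-/- lenses. WT C and Fyco1-/- C were the extremes, and the other 4 libraries lay close together. From the steps of its values these are an estimated 42, 60 and 81 reads in WT and 49, 48 and 20 reads in Fyco1-/-. The log2 fold change of -0.49 had a 95% confidence interval of -1.004 to 0.029 (SE 0.23, adjusted p = 0.230).

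**Figure D2:**
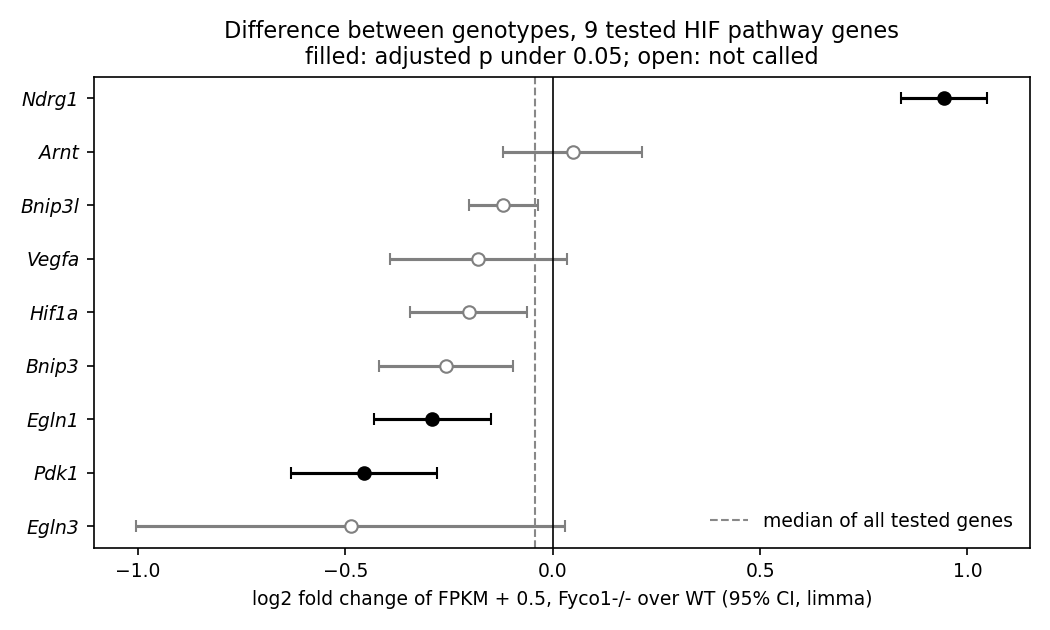
Log2 fold change of FPKM + 0.5 in Fyco1-/- over WT for the 9 tested genes (horizontal axis, points) with 95% confidence intervals from limma, filled where the adjusted p was under 0.05. Ndrg1 stands alone at 0.94 on the right, Pdk1 (-0.45) and Egln1 (-0.29) are filled on the left, and the dashed line marks the median of all tested genes at -0.04.

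Pdk1 encodes a pyruvate dehydrogenase kinase, which shuts off the entry of pyruvate into the mitochondrial cycle and is a classical HIF-1 target (chromosome 2, 71873224 to 71903858, plus strand, ENSMUSG00000006494). Its level was 8.81, 9.17 and 9.52 FPKM in WT lenses against 7.01, 5.95 and 6.75 FPKM in Fyco1-/- lenses. The groups were well apart, with the highest Fyco1-/- value below the lowest WT value. Pdk1 fell by 0.45 on the log2 scale (SE 0.08, 95% confidence interval -0.63 to -0.28, adjusted p = 0.00662), and it was called in all 15 alternatives (adjusted p 0.00498 to 0.0279). Its paralogs Pdk2 (10.2 and 9.22 FPKM in WT and Fyco1-/-, adjusted p = 0.535) and Pdk3 (3.86 and 3.42 FPKM, adjusted p = 0.557) were not called, and Pdk4 was under 0.1 FPKM in both genotypes. Of 11 tested genes of pyruvate dehydrogenase, its kinases and its phosphatases, Pdk1 was the only call (9.09%, beside 8.43% of all tested genes). The phosphatase gene Pdp1, whose product reverses the kinases, had a WT mean of 2.07 ± 0.241 FPKM and a Fyco1-/- mean of 1.42 ± 0.0389 FPKM (log2 -0.42, adjusted p = 0.0531). Pdpr, the regulatory subunit of that phosphatase, had 1.64 and 2.07 FPKM (log2 0.27, adjusted p = 0.235).

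Pdha1, the E1 alpha subunit of the enzyme complex itself, had 7.60 ± 1.06 FPKM in WT lenses and 7.60 ± 0.252 FPKM in Fyco1-/- lenses (log2 0.01, 95% confidence interval -0.20 to 0.22, adjusted p = 0.971). The ratio of Pdk1 to Pdha1 within a library was 0.998 to 1.36 in WT and 0.757 to 0.922 in Fyco1-/-, without overlap.

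Vegfa encodes vascular endothelial growth factor A, the HIF target that draws in blood vessels (chromosome 17, 46016993 to 46032369, minus strand, ENSMUSG00000023951). It was abundant, at 43.6, 47.1 and 44.5 FPKM in WT lenses against 46.8, 35.2 and 38.1 FPKM in Fyco1-/- lenses. Fyco1-/- B and C lay below WT, whereas Fyco1-/- A lay among the WT values. The difference was not called (log2 -0.18, SE 0.09, adjusted p = 0.281), and it was without Fyco1-/- A (log2 -0.30, adjusted p = 0.0158). With all libraries, limma called none of the 7 tested VEGF ligands and receptors (adjusted p under 0.05), beside 8.43% of all tested genes. None had an unadjusted p under 0.05 either, beside 24.4% of all tested genes. All 7 log2 fold changes were negative (median -0.13), as were 7192 of all 12001 tested genes (median -0.04). Vegfb, a related ligand, had 22.5 and 20.49 FPKM (log2 -0.13, adjusted p = 0.215), and the placental growth factor gene Pgf 5.91 and 5.08 FPKM (log2 -0.20, adjusted p = 0.273). Kdr, the main receptor on endothelial cells, had 3.57 ± 0.801 FPKM in WT and 2.89 ± 0.248 FPKM in Fyco1-/- (adjusted p = 0.306). The 10 endothelial markers summed to 39.95 to 52.5 FPKM in WT and 38.04 to 42.9 FPKM in Fyco1-/-, and none was called.

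Bnip3 and Bnip3l (also called Nix) encode outer mitochondrial membrane proteins that recruit the autophagosome to mitochondria, and Bnip3l is needed for removal of organelles from maturing lens fibres and red cells. Bnip3 (chromosome 7, 138890836 to 138909519, minus strand, ENSMUSG00000078566) measured 37.5, 37.0 and 42.1 FPKM in WT lenses against 32.3, 29.8 and 35.4 FPKM in Fyco1-/- lenses. Bnip3l (chromosome 14, 66985239 to 67008877, minus strand, ENSMUSG00000022051) measured 92.4, 89.6 and 89.8 FPKM in WT and 81.8, 83.2 and 85.1 FPKM in Fyco1-/-. For both genes the Fyco1-/- libraries lay below the WT libraries without overlap, and neither difference was called.

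The log2 fold change of Bnip3 was -0.26 (SE 0.07, adjusted p = 0.0558), which became a call without Fyco1-/- C (log2 -0.32, adjusted p = 0.0297). That of Bnip3l was -0.12 (SE 0.04, adjusted p = 0.0850). Bnip3l exceeded Bnip3 2.13 to 2.46 times in the WT libraries and 2.40 to 2.79 times in the Fyco1-/- libraries, with overlap. Near-identical sequence limits both values: the Bnip3 transcript matches those of 5 other genes (alignments of 100 bases or longer, identity of 95% or higher), and Bnip3l matches its pseudogene Bnip3l-ps over 663 bases at 99.2% identity. Among 8 tested mitophagy receptor genes and regulators, 1 rose and none fell by limma (12.5%, beside 8.43% of all tested genes), and 3 had an unadjusted p under 0.05 (24.4% of all tested genes did). The call was Pink1, the kinase that marks damaged mitochondria, from 14.1 ± 0.550 to 17.3 ± 1.70 FPKM (log2 0.29, adjusted p = 0.0426), and it was lost without any 1 library other than Fyco1-/- A (adjusted p up to 0.139).

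Ndrg1 encodes a cytoplasmic protein raised by low oxygen and by differentiation, and is widely used as a hypoxia marker (chromosome 15, 66929318 to 66969640, minus strand, ENSMUSG00000005125). It measured 47.6, 47.5 and 47.8 FPKM in the WT lenses. In the Fyco1-/- lenses it measured 88.4, 98.0 and 89.97 FPKM. The WT libraries were almost identical, and the lowest Fyco1-/- library was still far above them. The rise was 0.94 on the log2 scale (SE 0.05, 95% confidence interval 0.84 to 1.05, adjusted p = 2.21e-06), larger than 99.5% of the log2 fold changes of all tested genes. It was called in all 15 alternatives, with log2 fold changes from 0.90 to 0.99.

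None of the other 3 NDRG genes was called higher. Ndrg4 was called lower, from 11.9 ± 0.482 to 9.70 ± 0.848 FPKM (log2 -0.28, adjusted p = 0.0459), a call lost without any 1 library other than Fyco1-/- B (adjusted p up to 0.145) and under median-of-ratios scaling (0.0526). Ndrg2 (1.66 and 1.56 FPKM, adjusted p = 0.797) and Ndrg3 (4.10 and 3.38 FPKM, adjusted p = 0.175) were not called. Within a library Ndrg1 exceeded Ndrg4 3.86 to 4.204 times in WT and 9.16 to 10.1 times in Fyco1-/-. Relative to Bnip3l, Ndrg1 stood at 0.515 to 0.532 in WT and 1.06 to 1.18 in Fyco1-/-, a ratio that does not depend on how libraries are scaled. Exons of Ndrg1 overlap those of 2 other genes, by 419 bases for the antisense gene Gm17035. The Ndrg1 transcript also matches that of Gm2895 over 138 bases at 100% identity. Gm2895 was listed at a mean of 0.0831 FPKM in WT and 0.233 FPKM in Fyco1-/-.

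The tested genes whose centred log2 profile over the 6 libraries lay nearest to that of Ndrg1 were Prx, Adi1 and the antisense transcript RP23-180A8.3 (root mean square difference 0.0326, 0.0419 and 0.0638). Prx, which encodes the membrane scaffold protein periaxin of lens fibres and Schwann cells, rose from 31.3 ± 0.671 to 59.1 ± 1.84 FPKM. Adi1, an enzyme gene of methionine salvage, rose from 18.5 ± 0.763 to 35.5 ± 1.11 FPKM. The nearest profiles to that of Pdk1 were Sema5b (0.0394), Sec14l5 (0.0438) and the glycolytic enzyme gene Aldoa (0.0484), which fell from 273 ± 6.94 to 205 ± 6.70 FPKM. All these profiles come from the same 6 libraries.

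Ankrd37 encodes a small ankyrin repeat protein and is a sensitive HIF-1 target in many cells (chromosome 8, 45996902 to 46005707, minus strand, ENSMUSG00000050914). It was barely detected, at 0.505, 0.483 and 0.557 FPKM in WT lenses against 0.401, 0.110 and 0.170 FPKM in Fyco1-/- lenses. A gene length of 0.932 kb, fitted to make those values whole reads, does so within 0.0074 of a read. It gives an estimated 8, 9 and 9 reads in WT and 7, 2 and 3 reads in Fyco1-/-. With the 1539 annotated exon bases the nearest whole numbers are 13, 15 and 15 in WT and 12, 3 and 5 in Fyco1-/-. All 3 Fyco1-/- values lay below WT, though Fyco1-/- A by 1 read at the fitted length. Its mean of the 6 libraries was under 0.5 FPKM, so it was left out of the test, and with no filter on low values its log2 fold change was -0.50 (SE 0.17, adjusted p = 0.205). Its exons overlap those of 2 other genes, by 349 bases for Lrp2bp on the opposite strand.

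The authors' deposited table gives DESeq2 results for the same comparison, where 9.37% of genes with an adjusted p were under 0.05. In the authors' deposited table the same 3 of the 10 genes passed: Ndrg1 (log2 0.98, adjusted p = 9.98e-79), Pdk1 (log2 -0.40, adjusted p = 0.000117) and Egln1 (log2 -0.24, adjusted p = 0.0435). Hif1a (adjusted p = 0.0995) and Bnip3 (adjusted p = 0.137) did not pass in the authors' deposited table, and its adjusted p of Ankrd37 is blank.

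**Figure D3:**
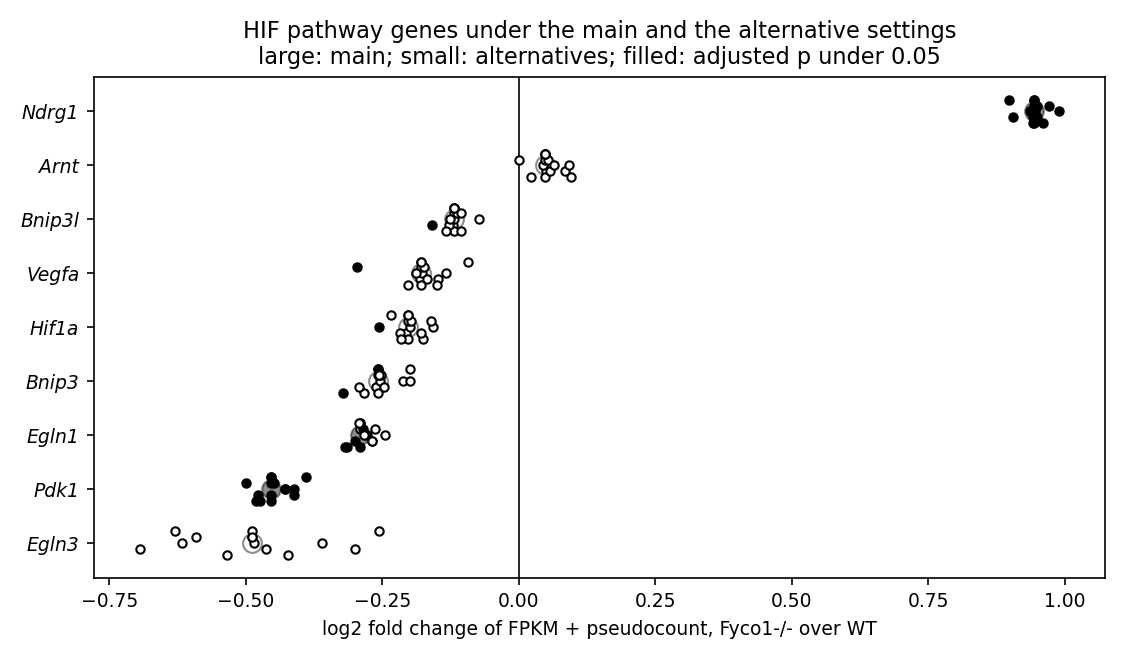
Log2 fold change in Fyco1-/- over WT (horizontal axis) of the 9 tested genes with the settings used here (large circles) and under each alternative setting (small circles, 14 for Egln3 and 15 for every other gene), filled where the adjusted p was under 0.05. No gene crosses 0, every Ndrg1 and Pdk1 circle is filled, and Egln1 is filled in 9 of 15 alternatives.

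The core letters of the hypoxia response element, to which HIF binds, are ACGTG or GCGTG. They were searched for on both strands of the 250 bases before each RefSeq start (GRCm38.p6), where ACGTG can also be part of the E-box CACGTG. Promoters were found for 8 of the 10 genes, with 10 start sites, and Ndrg1 and Bnip3l had no entry. A match was present in 8 of the 10 windows and for all 8 genes, 19 matches in all. Among the promoters of all genes 38.6% held a match, and among those of tested genes 57.0%. Pdk1, the gene called lower with the smallest p, has 2 start sites in the table, and the window of the second held no match. The window of the first is printed whole with its single match in capitals, 78 bases before the start (chr2:71872974-71873223, plus strand).
Pdk1: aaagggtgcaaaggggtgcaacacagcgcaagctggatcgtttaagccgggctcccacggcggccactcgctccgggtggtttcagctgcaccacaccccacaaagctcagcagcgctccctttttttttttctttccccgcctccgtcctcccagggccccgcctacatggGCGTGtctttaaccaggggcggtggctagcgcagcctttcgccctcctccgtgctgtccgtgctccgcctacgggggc

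Short windows around single matches show how they are placed in Egln1, the other gene called lower that has a promoter entry, and in 3 genes with more than 1 match. Each reads 5′ to 3′ along the gene's strand with the match in capitals, and CACGC or CACGT in capitals is a match of the opposite strand. They lie at chr8:124949366-124949390 and chr8:124949308-124949332 (Egln1, minus strand), chr7:138909609-138909633 and chr7:138909599-138909623 (Bnip3, minus strand), chr8:45999988-46000012 (Ankrd37, minus strand), and chr12:73907723-73907747 and chr12:73907787-73907811 (Hif1a, plus strand).
Egln1, 126 bases before the start: ccggcccgccGCGTGcgcgcggccc
Egln1, 68 bases before the start: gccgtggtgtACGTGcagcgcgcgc
Bnip3, 117 bases before the start: catgccggcgCACGCgccgcacgtg
Bnip3, 107 bases before the start: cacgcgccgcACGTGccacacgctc
Ankrd37, 152 bases before the start: cactgcgcacGCGTGctgcggccgc
Hif1a, 134 bases before the start: acagacaagcACGTGagcggggcag
Hif1a, 70 bases before the start: gctgagagcaACGTGggctggggtg
Bnip3 had the most matches, 5 in its 250 bases, and both Bnip3 and Hif1a hold the palindrome CACGTG. Vegfa had 2 matches at a start inside the gene (chr17:46025164-46025413, minus strand). The windows of Hif1a (chr12:73907617-73907866) and Ankrd37 (chr8:45999851-46000100) likewise lie inside the span of the gene given above, not before its 5′ end. The window next to the 5′ end of Vegfa (chr17:46032378-46032627) held none. Genes that fell (Pdk1, Egln1), did not pass (Bnip3, Hif1a) or overlapped between genotypes (Arnt, with 1 match) all held a match. Vegfa, which did not pass, held a match at the inner start only. A match is only a run of letters, and binding was not measured.

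The share of calls in the wider HIF system was near that of all tested genes. Of 19 tested genes for the HIF subunits, hydroxylases, the VHL complex and cofactors, none was called higher and 2 lower, Egln1 and Cited2 (10.5%, beside 8.43% of all tested genes), with a median log2 fold change of -0.01. At an unadjusted p under 0.05 there were 7, where 24.4% of all tested genes passed. In the fits that left out 1 library, 0 or 1 gene of the list was called. Cited2, whose product competes with HIF for the coactivator p300 and which is itself a HIF target, fell from 12.98 ± 0.289 to 10.04 ± 1.32 FPKM (log2 -0.36, SE 0.09, adjusted p = 0.0312). Its call was lost without any 1 library other than Fyco1-/- B (adjusted p up to 0.0961). Vhl itself measured 6.37 ± 0.247 and 5.43 ± 0.427 FPKM (log2 -0.21, adjusted p = 0.137).

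HIF targets outside glycolysis went both ways. That list also holds the glycolysis regulators Pfkfb3 and Pfkfb4 (log2 0.03 and -0.16, neither called). Of 40 tested, 4 rose and 6 fell (25.0% called, median log2 -0.13). Among all tested genes 8.43% were called, 3.42% higher and 5.02% lower, with a median of -0.04. Without the 7 tested members of the 10 among them there were 3 rises and 4 falls in 33 genes (21.2%, median -0.09). Hmox1, the heme oxygenase gene that HIF shares with other stress factors, rose 2.11-fold to 501 ± 43.6 FPKM (log2 1.07, adjusted p = 5.70e-06). Ppp1r3c, which targets a phosphatase to glycogen, rose from 5.79 ± 1.16 to 9.63 ± 1.35 FPKM (log2 0.70, adjusted p = 0.0220), a call that ended when Fyco1-/- A was left out (adjusted p = 0.0513), and also for Fyco1-/- C (adjusted p = 0.0644). P4ha1, a collagen prolyl hydroxylase gene, fell from 45.1 ± 5.197 to 29.5 ± 1.42 FPKM (log2 -0.60, adjusted p = 0.00166). Narf fell from 17.6 ± 1.02 to 14.2 ± 0.185 FPKM (log2 -0.30, adjusted p = 0.0136), and its adjusted p was 0.0512 with median-of-ratios scaling. Without WT B, 3 rather than 6 genes of this list were called lower.

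HIF targets in glycolysis were mostly called lower. Of 17 tested, none rose and 12 fell (limma, 70.6%, median log2 -0.34, 15 at an unadjusted p under 0.05), beside 8.43% called, a median of -0.04 and 24.4% at an unadjusted p under 0.05 among all tested genes. In the 15 alternatives 10 to 13 fell. Ldha, which turns pyruvate into lactate, measured 77.0, 99.1 and 85.6 FPKM in WT lenses against 45.8, 45.7 and 40.9 FPKM in Fyco1-/- lenses (log2 -0.97, adjusted p = 0.000298). Tpi1 (log2 -0.52, adjusted p = 0.000124), Aldoa (log2 -0.42, adjusted p = 0.000141) and Pgk1 (log2 -0.44, adjusted p = 0.000490), which encode successive or neighbouring enzymes of the pathway, also fell. WT B, which had the highest skeletal muscle marker sum, had the highest Ldha value. WT A and C also had higher muscle marker sums than every Fyco1-/- library, and the part of muscle RNA was not tested. Without WT B 11 of the 17 genes were called lower, and the log2 fold change of Ldha was -0.87 (adjusted p = 0.000190). Ndrg1 and Hmox1 rose in the same libraries in which most glycolytic HIF targets fell.

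**Figure D4:**
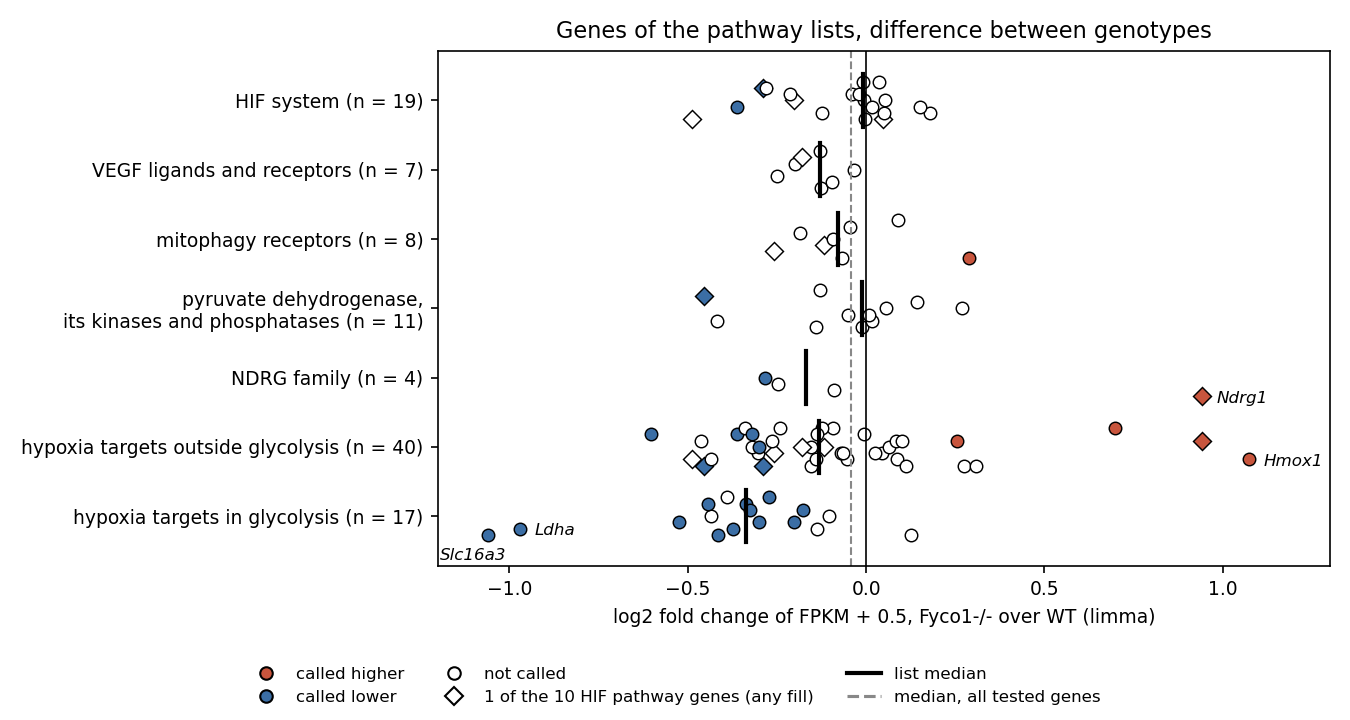
Log2 fold change of FPKM + 0.5 in Fyco1-/- over WT for every tested gene of the 7 pathway lists (1 point per gene, spread vertically for legibility), red where called higher and blue where called lower, with diamonds for the 10 HIF pathway genes. The glycolytic targets lie to the left with a median of -0.34, the HIF system centres near 0, and Ndrg1 and Hmox1 stand far to the right.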

How the data were processed

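RNA sequencing of 6 lens libraries, 3 per genotype, was used as deposited. Per the labels, reads were aligned to GRCm38/mm10 with STAR 2.5 and counted per gene with HTSeq 0.6.1, and the authors turned the counts into FPKM. The annotation, the strand setting and the scaling total are not given in the sources used here. The log2 fold changes, p-values and adjusted p-values in the authors' deposited table come from DESeq2, per the labels. No table of counts was used, so no count test was run.

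Genes with a mean of at least 0.5 FPKM over the 6 libraries (12001 of 22298 entries) were tested on the scale log2(FPKM + 0.5). The linear model of limma 3.58.1 (R 4.3.3) had genotype as its only term, trend and robust moderation, and a two-sided Benjamini-Hochberg adjustment over all tested genes. Log2 fold changes are on that scale and understate the change of low genes, and folds are ratios of mean FPKM. The pools are called biological replicates, but p-values measure only the spread between these libraries. The smallest two-sided p of an exact permutation test is 0.1 here. The steps were tested on simulated data.

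The 10 genes and the lists were chosen with earlier results of these data known. Named genes are the 10, Fyco1, up to 4 called genes of each list by p (2 where none is called) and the 3 nearest profiles to Ndrg1 and to Pdk1. Paralogs, Pdha1, Kdr, Vhl, Bfsp2, Pfkfb3, Pfkfb4 and the genes of the closing section were added after their values were seen. Of the entries, 93.3% matched a GENCODE M21 gene by symbol, which gave positions, exon overlaps of at least 50 bases and, with blastn 2.17.0, near-identical transcripts. Depth was estimated from steps of small FPKM: 43.7% to 46.5% of the smallest values were whole reads to within 0.05, against 10% by chance, so read numbers are estimates and carry no interval. Alternatives changed the pseudocount, the filter, the moderation, the scaling, the replicate block or left out 1 library.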

Additional observations from a re-analysis of the deposited data

How the results depend on the processing

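No log2 fold change of the 9 tested genes changed sign in 15 alternatives, and 122 of 134 values kept their side of the threshold. Ndrg1 and Pdk1 were called in all 15. Egln1 lost its call with no filter on low values (log2 -0.29, adjusted p = 0.050003, with 22298 genes tested) and with median-of-ratios scaling (log2 -0.25), and ran from -0.32 to -0.26 with 1 library left out. Bnip3 gained a call at 1 FPKM in 3 libraries (log2 -0.26, adjusted p = 0.0459) and ran from -0.32 to -0.20 with 1 library left out. Bnip3l gained a call with quantile normalization (log2 -0.16, adjusted p = 0.0365). With 1 library left out, Hif1a ran from -0.26 to -0.16 and Vegfa from -0.30 to -0.093. The number of the 10 genes called lower was 1 with no filter and with median-of-ratios scaling, and 1 to 3 with 1 library left out. Over all genes 568 were called with no filter (246 higher, 322 lower), 627 were called higher with median-of-ratios scaling, and leaving out 1 library gave 607 to 863 calls (268 to 332 higher, 325 to 541 lower). With no filter the calls of Cited2, Ppp1r3c, Ndrg4 and Pink1 were also lost (adjusted p = 0.0935, 0.0593, 0.112 and 0.113). Log2 fold changes close to 0 changed sign: Egln2 with quantile normalization (0.017) and median-of-ratios scaling (0.034), and, with 1 library left out, Egln2 (-0.073 to 0.089), Epas1 (-0.061 to 0.13), Pdha1 (-0.046 to 0.11) and Ndrg2 (-0.23 to 0.11), none of them called. The cause of these changes was not tested, beyond the fewer libraries or larger number of genes that a setting itself brings.

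The letters A, B and C did not pair the libraries (the deviations from the genotype mean correlated at -0.030, 0.028 and 0.027). With them as a replicate block 929 genes were called and Bnip3 became a call (log2 -0.26, adjusted p = 0.0189), with no other change among the 9 genes. At the estimated depth and the fitted length Ankrd37 rests on 2 to 9 reads per library, so its difference was not resolved.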

Other observations

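Some HIF targets that modify chromatin and collagen were called, in either direction. The histone demethylase genes Kdm3a and Kdm4b are both raised by HIF in many cells, yet the WT mean of Kdm3a was 12.99 ± 0.230 FPKM and it rose to 15.6 ± 0.903 FPKM (log2 0.25, adjusted p = 0.0331). Kdm4b fell, with 7.43 ± 0.357 FPKM in WT lenses and 5.85 ± 0.143 FPKM in Fyco1-/- lenses (log2 -0.32, adjusted p = 0.0233). With 1 library left out the call of Kdm3a held in 1 of 6 fits (adjusted p up to 0.116) and that of Kdm4b in 2 of 6 (adjusted p up to 0.0950). Of the collagen hydroxylase genes, P4ha1 fell, whereas P4ha2 (13.8 and 12.7 FPKM, adjusted p = 0.360) and the lysyl hydroxylase gene Plod2 (5.75 and 5.19 FPKM, adjusted p = 0.354) were not called. Among glycogen genes, Ppp1r3c rose while the glycogen synthase gene Gys1 (4.70 and 4.37 FPKM, adjusted p = 0.636) was not called.

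Several genes that hypoxia raises strongly in other tissues were near 0 in lenses of both genotypes. Adm was listed at 0 in all 3 WT libraries and at 0.0368 to 0.0382 FPKM in Fyco1-/-, Epo was above 0 in WT B alone (0.0582 FPKM), and Car12 had 0.0425 FPKM in WT and 0.00919 FPKM in Fyco1-/-. Car9 had 0.460 and 0.414 FPKM. Slc16a3, the lactate exporter gene, had the lowest log2 fold change of the glycolytic targets (log2 -1.06, adjusted p = 0.00212). It measured 5.05, 7.77 and 5.96 FPKM in WT lenses against 3.17, 2.50 and 2.46 FPKM in Fyco1-/- lenses. WT B, which had the highest skeletal muscle marker sum, had the highest Slc16a3 value, and WT A and C also had higher sums than every Fyco1-/- library. With 1 library left out the log2 fold change ran from -1.19 to -0.90, and Slc16a3 was called in all 6 fits.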
